A study of Mus musculus with 10 samples.

Results

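The cells described here are the somatic cells of the mouse testis that the authors' annotation did not name Sertoli cells, a mixed pool that came mostly from the Nfya-CKO testis. They were taken by the authors' cell names, as the cells of the scRNA-seq table named as soma of the Nfya-CKO. The authors gave these names to clusters from the expression of marker genes, so the marker levels below describe the pool and are no test of its name. The pool held 5883 of 45250 scRNA-seq cells (13%), of which 4633 came from the Nfya-CKO library. In the scATAC-seq table of 343866 cells, 1942 carried this name from their own RNA and 24188 carried it from their chromatin. The gene levels come from 13 population columns, in which the pool stands beside 10 germ cell populations, Sertoli cells and a small group of 99 cells named unknown.

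The study measured RNA and accessible chromatin in the same nuclei of the testis, to follow how the NF-Y subunit NFYA acts at entry into meiosis. Wild-type (WT) C57BL/6J testes were taken at 11, 17 and 25 days postpartum (dpp), and adult testes at 8 weeks from Cre/+ mice and from Nfya-CKO mice (Nfya fl/fl; Stra8-Cre), each group with 1 library per assay. Both adult groups carried the Stra8-Cre allele, which the study uses to delete in germ cells from the spermatogonia onward, so the deletion of a pair of Nfya exons was not aimed at the somatic cells described here. Tissue was digested with collagenase and trypsin, strained and lysed, and nuclei were loaded, so a cell here is a nucleus and the RNA is nuclear. The number of animals behind a library is not given in the sources used here, so no comparison of libraries has a replicate check and no p-value is given.

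Outside the seminiferous tubules, the testis holds Leydig cells, which make testosterone from cholesterol and secrete the peptide hormone INSL3, together with fibroblast-like stromal cells, blood and lymph vessels and resident macrophages. Contractile peritubular myoid cells wrap the tubules and build the basement membrane with the Sertoli cells, the nurse cells inside. Each of these cell types has well-known marker genes, and lists of such genes were used to read the pool.

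The pool was not spread evenly over the libraries. It made up 89.9% of the Nfya-CKO library (exact 95% interval 89.1 to 90.7%, 4633 of 5152 cells) and 2.84% of the Cre/+ library (2.55 to 3.16%, 341 of 11991 cells). In the WT libraries the share was 4.0% at 11 dpp (251 of 6273 cells), 3.79% at 17 dpp (142 of 3746) and 2.84% at 25 dpp (513 of 18039). The Nfya-CKO library therefore gave 78.8% of the pool (77.7 to 79.8%), and 3 cells had no library name. These intervals, as all intervals given here, cover counting error only. The Nfya-CKO library had no cell named Sertoli by RNA. Of the 3265 cells in the Sertoli column, 2866 (87.8%) came from the 11 dpp testis, and 2 from Cre/+, so the pool and the Sertoli column differ in age and genotype as well as in cell name, and these cannot be told apart.

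Most of the Nfya-CKO cells in the pool were shallow. Pool cells of Nfya-CKO had a median of 1289 unique molecular identifiers (UMIs, counted RNA molecules) and those of Cre/+ 2948. The WT medians, from the youngest to the oldest testis, were 7057, 4256.5 and 3723 UMIs. The pool fell into 6 of the authors' clusters, numbered 11, 18, 21, 23, 25 and 28. Clusters 11, 25 and 28, grouped here after their values were seen, held 3110 Nfya-CKO cells at a median of 953 UMIs, and 54 of them (1.74%, 1.31 to 2.26%) had a chromatin profile. Clusters 18 and 23 held 1446 Nfya-CKO cells at a median of 19135 UMIs, and 1091 of them (75.4%, 73.1 to 77.6%) had one. Cluster 21 held most of the juvenile cells of the pool, with 224, 118 and 418 cells from 11, 17 and 25 dpp. It also held 40 cells from Cre/+ and 77 from Nfya-CKO. Cluster 23 held 319 Nfya-CKO and 278 Cre/+ cells, and 27, 24 and 91 cells from 11, 17 and 25 dpp. Of its Cre/+ cells, 270 share a barcode with a cell of another library. The population columns weigh every cell equally, so clusters 11, 25 and 28, with 53.2% of the pool's cells and 8.36% of its UMIs, carry 53.2% of the weight of each gene level below.

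Cell barcodes were shared between libraries, most often between the adult ones. Among WT pool cells, 22.3% at 11 dpp, 47.2% at 17 dpp and 9.55% at 25 dpp had a shared barcode. Of all scRNA-seq cells, 10571 (23.4%) had a barcode number that also occurs in another library, against 4126 pool cells (70.1%) and 214 Sertoli cells (6.55%). Among scATAC-seq cells the share was 0.588%. Of the Nfya-CKO pool cells, 3628 had a barcode found in Cre/+, and the same barcode was most often a pachytene spermatocyte (1110), an elongating spermatid (709), a round spermatid (609) or a diplotene spermatocyte (503) there. In cluster 11 the Cre/+ cell with the same barcode was the deeper one, with a median of 11144.5 against 886 UMIs over 1796 pairs. In cluster 18 the Nfya-CKO cell was deeper, with 29833 against 3094 UMIs over 685 pairs, of which 671 were with spermatids. Of the 341 Cre/+ pool cells, 317 (93.0%) shared a barcode with a Nfya-CKO pool cell, and the Nfya-CKO cell was again the deeper one (median 23956 against 2949 UMIs). Whether a shared number stands for 1 cell read in both libraries or for 2 cells was not tested. Without the 3047 pool cells (51.8%) whose barcode has more UMIs in another library, the pool's share of the Nfya-CKO library was 79.4%, and without every cell with a shared barcode it was 75.0%. The gene columns could not be recomputed without these cells, because they are deposited as population means.

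**Figure D1:**
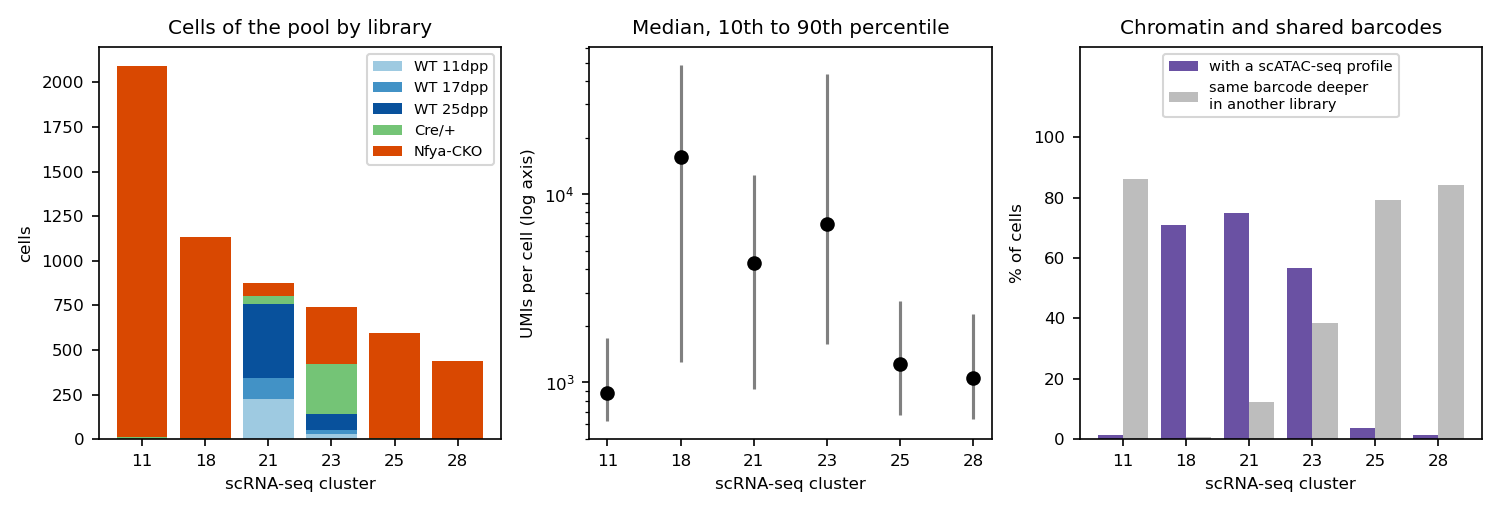
The 6 scRNA-seq clusters of the somatic pool. Left, cells of each cluster, stacked by library. Middle, UMIs per cell on a log axis, with the point at the median and the line from the 10th to the 90th percentile. Right, the percent of cells with a scATAC-seq profile and the percent whose barcode has more UMIs in another library. Clusters 11, 25 and 28 have medians of 876.5, 1250 and 1053.5 UMIs and few chromatin profiles (1.38%, 3.52% and 1.37%), whereas cluster 18 has a median of 15720 UMIs and 71.1% with a profile.

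For the cells with both readouts, the chromatin gave a different name for most of the Nfya-CKO pool. Of 1217 Nfya-CKO cells named pool by RNA, 855 (70.3%, 67.6 to 72.8%) were named Sertoli by chromatin and 351 (28.8%, 26.3 to 31.5%) were named pool. In Nfya-CKO the split followed the RNA clusters. In cluster 18 the chromatin named 773 of 801 Nfya-CKO cells Sertoli (96.5%), and in cluster 23 it named 240 of 291 pool (82.5%) and 51 Sertoli. In the mostly juvenile cluster 21 it named 69 of 71 Nfya-CKO cells pool (97.2%), but 111 of 297 cells at 25 dpp (37.4%). Among paired WT pool cells the chromatin named 147 of 220 pool and 70 Sertoli at 11 dpp, and 59 of 94 and 26 at 17 dpp. At 25 dpp it named 150 of 372 pool and 80 Sertoli, and 142 had other names. In cluster 21 at 25 dpp, 28 were named early leptotene to zygotene, 54 leptotene to early pachytene and 39 pachytene spermatocytes. In Cre/+ 22 of 39 were named pool and 8 Sertoli.

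By these names the pool is not non-Sertoli soma throughout, and it is called the somatic pool here. The study named chromatin clusters from the RNA names of cells with both readouts, together with accessibility at marker genes. The chromatin names are therefore not independent of the RNA names. The Nfya-CKO cells with a Sertoli name had lower chromatin quality than those with a pool name. Their median enrichment of fragments at transcription start sites (TSS enrichment) was 6.19 against 10.8, and their median nucleosome ratio, the weight of nucleosome-bound over short fragments, was 0.928 against 0.674. Depth ran the other way, with medians of 18174 and 10082 fragments. Among cells with a TSS enrichment of at least 8 the Sertoli share was 35.5%, and the part of chromatin quality in these names was not tested.

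The pool as named by chromatin was made of other cells. Of its 24188 cells, 12370 came from 11 dpp and 7243 from 17 dpp (81.1% together), 960 from 25 dpp, 3321 from Nfya-CKO and 294 from Cre/+. Only 794 of them (3.28%) had an RNA name, and 729 of these (91.8%) were named pool by RNA as well. These 729 cells are 37.5% of the pool named by RNA and 3.01% of the pool named by chromatin. The scATAC-seq gene columns carry the RNA names. All 13 are names given by RNA, and 5 of them, such as those of preleptotene cells and elongating spermatids, are not among the 8 names given by chromatin. The pool column of chromatin, read by its name, therefore stands for the 1942 cells named by RNA, of which 62.7% are Nfya-CKO and 314 come from 11 and 17 dpp.

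Leydig cell transcripts set the pool apart from the germ cells. A level below is the mean over a population's cells of UMIs per 10000 UMIs of a cell, not divided by gene length, so it is compared for 1 gene across populations. Insl3, which encodes the peptide hormone of testicular descent, reached 177 in the pool. Its highest level in the 9 germ cell populations other than the Nfya-CKO spermatogonia was 3.81, in elongating spermatids, and the other 8 ranged from 0.0227 in preleptotene cells to 0.893 in differentiating spermatogonia. It stood at 39.8 in Nfya-CKO spermatogonia, 20.5 in the unknown cells and 0.0176 in Sertoli cells. Jak3, a cytokine receptor kinase gene, had nearly the same values (178 in the pool, 39.8 in Nfya-CKO spermatogonia), but its annotated exons share 404 bases with Insl3 on the same strand, so the reads of both genes cannot be told apart. Insl3 lies at chr8:71689214-71690575 on the plus strand of mm10 and ends at the same base as Jak3.

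Several genes of steroid synthesis were likewise highest in the pool. Cyp17a1, the enzyme that turns pregnane steroids into androgen precursors (chr19:46667165-46673172, minus strand), was at 31.2 in the pool, 7.39 in Nfya-CKO spermatogonia, at most 0.809 in the other germ cells and 0.0208 in Sertoli cells. Ptgds, prostaglandin D2 synthase (chr2:25466709-25470046, minus strand), was at 52.3, 11.8, at most 2.45 and 0.0815. Both were highest in the pool, then in the Nfya-CKO spermatogonia, and both were far lower in the Sertoli column. Star, which brings cholesterol into mitochondria, was at 4.18 in the pool and 0.241 in Sertoli cells. Cyp11a1, the side-chain cleavage enzyme, was at 3.94 and 0.0553, and Hsd3b6, a 3-beta-hydroxysteroid dehydrogenase of adult Leydig cells, at 7.78 and 0.00128. Hsd3b6 and its paralog Hsd3b1 (1.44 in the pool) are similar in sequence, and how reads were split between them was not tested.

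Of the 16 genes on the Leydig list, all passed the filter on low values (a mean of at least 0.05 over the populations compared), and 12 were at least 2-fold above every germ cell population, with 0.1 added to both levels. Over all 15168 genes compared, 363 did so (2.39%). The median ratio of the pool to the highest germ cell population was 3.47 for the list and 0.507 for all genes. The 4 listed genes that did not stand above were Scarb1, the HDL receptor (2.97 in the pool and 2.52 in round spermatids), Tspo (0.224 and 0.103 in elongating spermatids), Srd5a1, a 5-alpha-reductase gene (0.129 and 0.172 in spermatogonia), and Cyp19a1, aromatase (0.872 and 9.19 in pachytene spermatocytes). Lhcgr, the receptor for luteinizing hormone that defines Leydig cells, was low but highest in the pool, at 0.457 against 0.0914 in Nfya-CKO spermatogonia. The list summed to 292 in the pool, 66.9 in Nfya-CKO spermatogonia, 8.46 in Sertoli cells and at most 14.6 in the other germ cells. Insl3, Ptgds and Cyp17a1 are markers given for the pool and make up most of that sum. Without them, 9 of 13 genes stood above every germ cell population, and the sums were 30.7 in the pool, 7.92 in Nfya-CKO spermatogonia, 8.34 in Sertoli cells and 10.7 in pachytene spermatocytes, the highest control germ cells.

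Genes outside the lists had a similar profile. Among the 10 genes with the largest ratio of the pool to Sertoli cells, the named Leydig genes stood with Lcn2 (19.3 against 0.000251), a secreted iron-siderophore carrier, Ephx1 (8.19 against 0.0177), microsomal epoxide hydrolase, and Agt (5.99 against 0.00957), angiotensinogen. All 3 were next highest in Nfya-CKO spermatogonia or in the unknown cells, at 4.29 and 4.88 for Lcn2. Cholesterol synthesis and uptake genes stood apart about as often as other genes. Of 22 compared, only Msmo1, a sterol demethylase (3.10 in the pool, 1.12 in Nfya-CKO spermatogonia), was at least 2-fold above every germ cell population, next to 2.39% of all genes. The list summed to 19.7 in the pool, 17.9 in Sertoli cells and 22.1 in control spermatogonia.

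**Figure D2:**
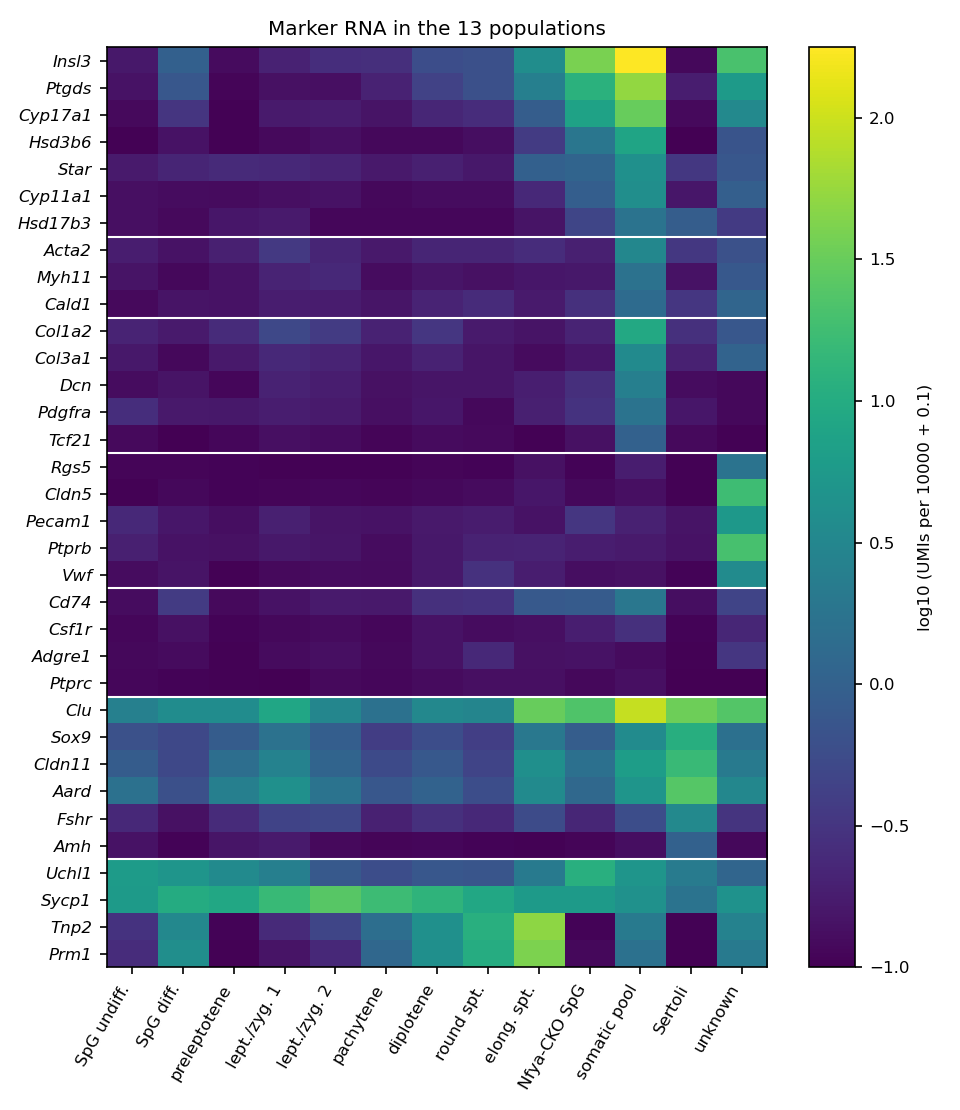
RNA level of listed marker genes (rows) in the 13 populations (columns), coloured by log10 of UMIs per 10000 plus 0.1. Most of the Leydig and stromal rows are brightest in the pool column, with Insl3 at 177 and Col1a2 at 8.96, and most Leydig rows are next brightest in the Nfya-CKO spermatogonia, with Insl3 at 39.8. White lines separate the lists.

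The second signature was of the tubule wall and interstitial connective tissue. Col1a2 and Col3a1, chains of the fibrillar collagens, were at 8.96 and 3.45 in the pool, against at most 0.399 and 0.134 in any germ cell population and 0.183 and 0.0980 in Sertoli cells. They had the largest ratios to the highest germ cell population of all genes with a level of at least 1 in the pool, 18.2 and 15.2. Next came Adamts5 (2.33 against 0.0649), a proteoglycan-cleaving protease, Eln (3.48 against 0.218), elastin, Acta2 (3.10 against 0.242), smooth muscle actin, and Igfbp7 (6.15 against 0.579), a secreted growth factor binding protein. The unknown cells were higher than the pool in Igfbp7 (56.9) and Eln (6.42), but not in Col1a2 (0.661), Col3a1 (0.968), Adamts5 (0.283) or Acta2 (0.542). The other 6 of the 12 highest ratios were Dcn, Osr2, Col6a1, Fgl2, Fhl2 and Mfap4, with pool levels from 1.13 to 2.45.

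On the stromal list, 10 of 12 genes past the filter (of 13) were at least 2-fold above every germ cell population (2.39% of all genes were). Above Sertoli cells there were 11 (17.8% of all 13697 genes compared were). The genes above the germ cells included Pdgfra (1.63 in the pool, at most 0.197 in germ cells), a growth factor receptor of interstitial progenitors. Also among them were the transcription factor genes Nr2f2 (1.98 and at most 0.409) and Tcf21 (0.931 and at most 0.0413). Col1a1 was at 7.73 in the pool but also at 3.03 in control spermatogonia. Dlk1 and Fbln1 did not stand above, since spermatogonia were higher (1.51 for Dlk1 in Nfya-CKO and 0.957 for Fbln1 in control spermatogonia, against 0.803 and 0.333 in the pool). Lum was near 0 in every population, at 0.0124 in the pool.

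On the peritubular list, 6 of 9 genes past the filter (of 13) stood above every germ cell population (2.39% of all genes did), namely Acta2, Myl9, Myh11, Cald1, Tagln and Tpm2. Myh11, smooth muscle myosin heavy chain, was at 1.56 against at most 0.137 in germ cells and 0.0444 in Sertoli cells. Cnn1 and Des, contractile markers of mature smooth muscle, were near 0 at 0.0862 and 0.0535. The list summed to 14.2 in the pool, 3.8 in Sertoli cells and at most 3.70 in the control germ cells. Of 13 basement membrane genes compared, 5 stood above every germ cell population, next to the same 2.39% of all genes. Among them Col4a1, a collagen IV chain, was at 3.25 in the pool and 1.22 in Sertoli cells, and Sparc, a matrix protein that Sertoli cells also make, was at 42.2 and 58.1. Both were higher in the unknown cells (13.4 and 85.2), where the list summed to 119.7 against 58.6 in the pool.

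The promoters of 4 genes that mark the pool are given because NF-Y binds the motif CCAAT and these genes show how it falls in the windows. They are the 150 bases before the transcription start, from RefSeq on GRCm38.p6, written 5′ to 3′ on the strand of the gene, with capitals for a motif. The windows are chr8:71689102-71689251 (Insl3, plus strand), chr2:25469750-25469899 (Ptgds, minus strand), chr6:4505468-4505617 (Col1a2, plus strand) and chr19:34255374-34255523 (Acta2, minus strand). The gene positions given in this text are from GENCODE, whose outermost starts lie further upstream, so each window overlaps its GENCODE gene.
Insl3: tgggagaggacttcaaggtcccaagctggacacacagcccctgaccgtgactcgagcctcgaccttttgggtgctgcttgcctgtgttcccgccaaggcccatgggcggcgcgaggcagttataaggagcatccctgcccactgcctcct
Ptgds: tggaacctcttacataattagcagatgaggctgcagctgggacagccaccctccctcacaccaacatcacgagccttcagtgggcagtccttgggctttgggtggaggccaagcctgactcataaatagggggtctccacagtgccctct
Col1a2: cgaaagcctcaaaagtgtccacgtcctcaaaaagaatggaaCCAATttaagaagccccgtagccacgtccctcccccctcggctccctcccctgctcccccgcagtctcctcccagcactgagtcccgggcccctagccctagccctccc
Acta2: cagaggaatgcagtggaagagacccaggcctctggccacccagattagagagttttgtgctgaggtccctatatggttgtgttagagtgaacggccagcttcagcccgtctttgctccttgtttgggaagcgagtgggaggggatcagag

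Col1a2 held CCAAT starting 109 bases before the start site, and no exact match to the 3 motifs searched was found in the other windows shown. The first motif was CCAAT. Another was the element of the steroidogenic factor NR5A1, searched as AAGGTCA, and the last was the strict CArG box of smooth muscle genes (CC, then 6 letters that are each A or T, then GG). CArG and NR5A1 elements that differ from these forms by a letter were not counted, such as aaggtcc in the Insl3 window. All were searched on both strands of the 250 bases before the start. CCAAT was in 33.9% of the 339 promoters of genes above every germ cell population and in 33.8% of all 32851 promoters. AAGGTCA was in 3.83% and 4.08%, and the CArG box in 2.65% and 1.47%. The promoter table held 11 of the 16 Leydig genes with 14 start sites, of which 5 held CCAAT and none held AAGGTCA.

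Transcripts of vessels and blood cells were low in the pool. Of 14 endothelial genes, 11 were under 0.1 in the pool, among them Pecam1 (0.0973), Vwf (0.0389) and Cldn5 (0.0364), which define blood vessel lining. None of 8 compared stood above every germ cell population, a count close to the 2.39% of all genes, and 3 of 6 (Tek, Kdr and Cdh5) were at least 2-fold above Sertoli cells, where 17.8% of all genes were. The list summed to 2.15 in the pool and 97.8 in the 99 unknown cells, where Cldn5 was at 17.4 and Cdh5 at 7.26. Tek, the angiopoietin receptor gene, was the highest endothelial gene in the pool at 0.874 and stood at 0.921 in Nfya-CKO spermatogonia and 0.772 in elongating spermatids. Of the pericyte genes, Mcam was at 0.375 in the pool and 2.58 in Nfya-CKO spermatogonia, Cspg4 at 0.171, Rgs5 at 0.0800 and Pdgfrb at 0.0450. None of 1 compared stood above every germ cell population, and 1 of 4 (Cspg4) was above Sertoli cells. For lymph vessels, Lyve1 and Prox1 were at 0.0135 and 0.0310. Pdpn was lower in the pool (0.607) than in Sertoli cells (1.53), and 0 of 1 compared stood above every germ cell population.

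Among 9 macrophage genes compared, only Cd74, the invariant chain of MHC class II, stood above every germ cell population (2.39% of all genes did), at 1.84 against 0.752 in Nfya-CKO spermatogonia and 0.717 in elongating spermatids. Its partner H2-Ab1 was at 0.650 against 0.347. The defining macrophage genes were low, with Csf1r at 0.184, Lyz2 at 0.263, Adgre1 at 0.0245 and Cd163 at 0.00259. Adgre1 was higher in round spermatids (0.140) than in the pool. Against Sertoli cells, 8 of 13 macrophage genes were at least 2-fold higher in the pool, and against Nfya-CKO spermatogonia 5 of 14 were, where 17.8% and 14.2% of all genes were. Lymphocyte genes were lower still, with 13 of 14 under 0.1, 0 of 3 compared above every germ cell population, Ptprc, the pan-leukocyte gene, at 0.0371 and Cd3e of T cells at 0.0506. The exception was Ms4a1, the B cell gene of CD20, at 0.279 in the pool, 0.240 in Nfya-CKO spermatogonia and 0.00636 in Sertoli cells, which it exceeded by over the 2-fold limit as the 1 gene compared. In these means, fewer cells of a type and less RNA per cell cannot be told apart.

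Sertoli transcripts were present in the pool although it was named apart from Sertoli cells. The 27 genes of the Sertoli list summed to 184 in the pool, 211 in the Sertoli column, 49.2 in Nfya-CKO spermatogonia and 84.0 in elongating spermatids. Without Clu, one of the markers given for the pool, the sums were 92.1 in the pool and 177.2 in the Sertoli column. Clu, the secreted chaperone clusterin (chr14:65968483-65981547, plus strand), was at 91.5 in the pool and 34.1 in Sertoli cells. Its level was 31.3 in elongating spermatids, 22.8 in Nfya-CKO spermatogonia and 1.55 at the lowest in control germ cells. Of 25 listed genes compared, 5 stood above every germ cell population (Clu, Defb36, Cst12, Vim and Gata4), of which Clu is a given marker, and 2.39% of all genes did.

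Of the 27 listed genes, 4 were above the Sertoli column, a count close to the share of all genes, and 12 were below it. Those at least 2-fold above were Clu, a given marker, Defb36 (7.11 against 3.13), Tsx (1.72 against 0.215) and Trf, transferrin (0.872 against 0.151). Of all genes compared, 17.8% were above the Sertoli column and 6.8% below. The 12 listed genes below it included Sox9 (3.54 against 10.7) and Wt1 (3.24 against 10.1), the transcription factors of Sertoli identity, Fshr (0.494 against 3.33), the receptor for follicle-stimulating hormone, and Cldn11 (6.29 against 16), a tight junction protein. Amh, the hormone of immature Sertoli cells, was at 0.0321 against 0.927. The ligand genes Kitl (2.08 against 7.11) and Dhh (0.761 against 2.89) were lower too, while Inha, the inhibin alpha subunit, was at 11.3 against 16.8. The Sertoli column is 87.8% from 11 dpp, and age was not separated from genotype or cell type in these differences.

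The 10 lowest ratios of the pool to Sertoli cells included, beside Amh, the unlisted genes H2-Q10 (0.122 against 2.71), Socs2 (0.184 against 2.59) and Notch1 (0.251 against 2.48). Ptma, a nuclear protein gene active in growing cells, was at 1.82 against 17.0. Lpl and Stra6, of lipid and retinol uptake, were at 0.0869 and 0.266 against 1.49 and 2.91. The unknown cells were higher than the pool in Notch1 (3.0) and lower in Lpl (0.00388).

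**Figure D3:**
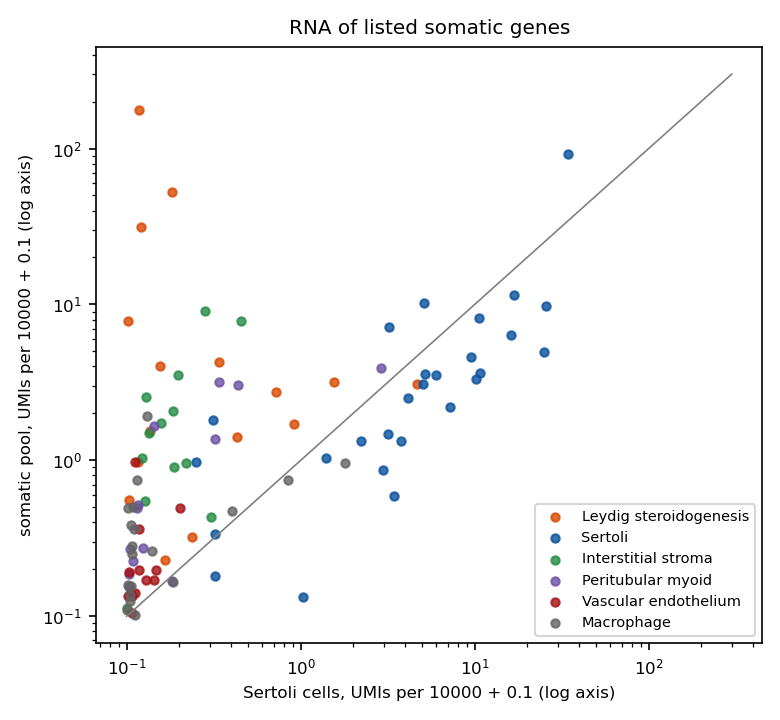
RNA of the listed somatic genes in the pool (y axis) against Sertoli cells (x axis), in UMIs per 10000 plus 0.1 on log axes, with points coloured by list and a line where both are equal. Stromal genes and most Leydig genes lie above the line (Scarb1 is below, at 2.97 against 4.55), and most Sertoli genes lie on or below it, with Clu above at 91.5 against 34.1.

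Transcripts of the Leydig list were present in the Nfya-CKO spermatogonia, many of them at a similar share of their pool level. For Insl3 the share was 22.4%, for Ptgds 22.5%, for Hsd3b6 22.7%, for Cyp17a1 23.7%, for Star 24.6% and for Cyp11a1 21.1%. Over the 13 listed Leydig genes with at least 0.5 in the pool the median share was 23.2% (3.26% for Cyp19a1 to 51.1% for Scarb1), and over 23 Sertoli genes it was 23.5% (17.7 to 364.6%, the highest being Dmrt1). Over all 5446 genes at that level it was 94.3%. The median was close to these for 10 basement membrane genes (21.5%) and 11 immediate-early genes of tissue dissociation (21.5%). For 11 paracrine ligand and receptor genes it was 18.6%. Some other lists lay further away. For 10 stromal genes the share had a median of 7.66%, with Col1a2 at 1.25%, and for 5 peritubular genes it was 14.1%, with Acta2 at 3.08%. Over 6 spermatid genes it was 1.36%, over 6 spermatogonial genes 192%. Both populations come from the Nfya-CKO library in whole or in most part, and the part of free RNA or of doublets in these shares was not tested. In elongating spermatids, of which 714 of 1195 share a barcode with another library, the median share was 4.70% for the Leydig genes and 56.6% for the Sertoli genes.

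**Figure D4:**
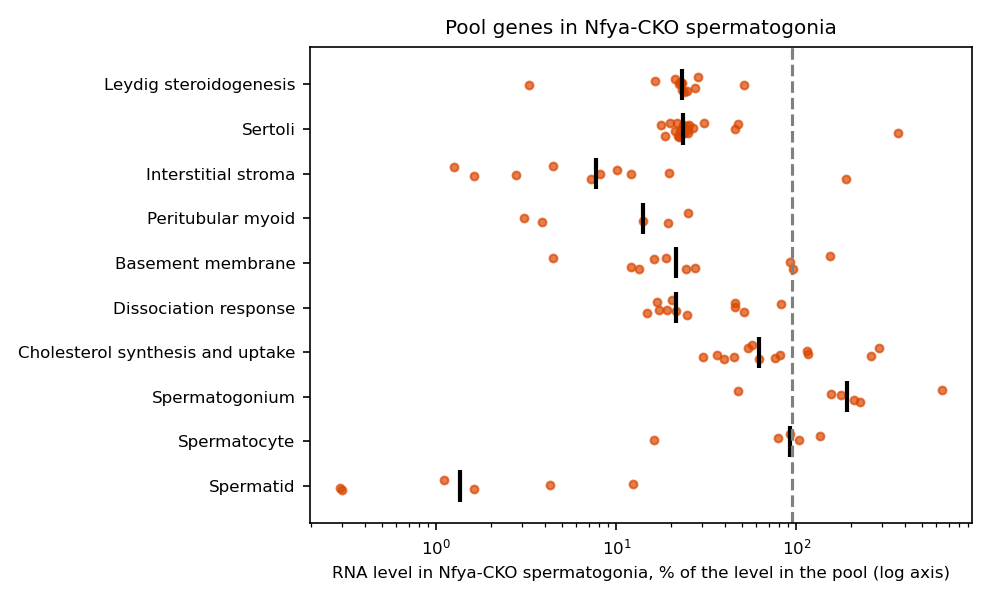
RNA level in Nfya-CKO spermatogonia as a percent of the level in the pool (x axis, log), one point per gene with at least 0.5 UMIs per 10000 in the pool, by list, with a black bar at each list's median and a dashed line at the median of all genes (94.3%). Most Leydig and Sertoli genes gather near 23%, and the collagen genes Col1a2 and Col3a1 lie near the low end.

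Against the Nfya-CKO spermatogonia, 2096 of 14731 genes were at least 2-fold higher in the pool (14.2%) and 1799 were lower (12.2%). The 8 largest ratios named were those of Col1a2, Eln, Col3a1, Adamts5 and Acta2 together with the germ cell genes Tnp2 (2.03 against 0.00605), a transition protein of condensing sperm chromatin, Ldhc (2.67 against 0.0492), the testis lactate dehydrogenase, and Fsip2 (1.51 against 0.00732), of the sperm fibrous sheath. Lower in the pool were Bahcc1 (0.371 against 3.37), Mdn1 (2.18 against 16.3), a ribosome assembly factor, and Reln (0.535 against 4.13). Germ cell transcripts were thus part of the pool column, in which clusters 11, 25 and 28 carry 53.2% of the weight. Of the 1796 cells of cluster 11 that share a barcode with Cre/+, 1084 share it with a spermatocyte and 427 with a spermatid, and the part of these barcodes in the germ cell levels was not tested. No gene of the spermatogonial, spermatocyte and spermatid lists stood above every germ cell population (0 of 10 in each), counts close to the 2.39% of all genes. Prm1, protamine, was at 1.54 in the pool, 40.8 in elongating spermatids and 0.00198 in Sertoli cells. All 10 spermatid genes were at least 2-fold above Sertoli cells (17.8% of all genes were), and the list summed to 7.63 in the pool, 10.9 in the unknown cells and 159 in elongating spermatids. Sycp1, of the synaptonemal complex, was at 4.29, against 1.64 in Sertoli cells and 25.3 in the later leptotene to zygotene cells.

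A few genes were high in the pool without marking it. Nkain2, which encodes a protein that binds the sodium pump, was among the 10 highest nuclear genes at 49.8 but was higher in Nfya-CKO spermatogonia (85.6) and close in elongating spermatids (43.2), against 2.65 in Sertoli cells. Asxl3 (11.7) and Chl1 (7.27) had large ratios to Sertoli cells (0.0577 and 0.0216), yet were higher in spermatids (24.2 and 13.8). Immediate-early genes, which tissue dissociation induces, were also present. Of 15 on that list 9 stood above every germ cell population (2.39% of all genes did), with Jun at 7.23, Egr1 at 5.14 and Fos at 3.97. They were about as high in Sertoli cells (7.08, 4.88 and 4.82).

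Of 23 paracrine ligand and receptor genes compared, 6 stood above every germ cell population, namely Insl3, a given marker also on the Leydig list, Pdgfra, Igf1, Cxcl12, Csf1 and Ednra. Of all genes, 2.39% did. Igf1, a growth factor of Leydig and stromal cells, was at 1.40 in the pool and 0.0339 in Sertoli cells, and Csf1, the macrophage growth factor, at 0.472 and 0.0526. Ednra, an endothelin receptor of contractile cells, was at 0.461 and 0.00996. Kitl and Dhh, ligands that Sertoli cells send to germ cells and Leydig cells, were lower in the pool, as given above.

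Nfya itself was at 0.822 in the pool, 0.360 in Sertoli cells, 1.11 in Nfya-CKO spermatogonia and 0.456 in control spermatogonia. These are UMIs of the whole gene, which do not show whether the floxed exons are present, so they check no label, and Nfya-CKO names the library as labelled. Nfyb and Nfyc, the other subunits, were at 0.356 and 0.734 in the pool.

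In chromatin, the pool was higher than Sertoli cells at stromal genes and lower at Sertoli genes. A scATAC-seq value is the share of a population's signal that the deposited column gives to a gene, per 1000000 over 30670 genes. The study's methods define promoter accessibility by coverage within 200 bases of a start site in pooled cells, and whether the deposited columns were made so is not stated. The 13 mitochondrial genes took 64.5% of the pool's signal and 51% of that of Sertoli cells, and from 31.2 to 63.8% in germ cells. With these genes in the total and 1 per 1000000 added, 1789 of 30417 genes were at least 1.5-fold above Sertoli cells (5.88%) and 6471 below (21.3%). With the nuclear genes alone, 5644 were above (18.6%) and 1914 below (6.30%). The higher share among genes apart moved from 21.7 to 74.7%, and the median log2 ratio of all genes from -0.28 to 0.06, so the values of single genes are given on both scales, the second over nuclear genes alone.

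Stromal genes were higher in the pool than in Sertoli cells on both. Their median ratio was 1.53 with mitochondrial genes and 2.15 without. Of 13 genes, 7 and 12 were at least 1.5-fold above, next to 5.88% and 18.6% of all genes. None were below, where 21.3% and 6.30% of all genes were. Over nuclear genes, 7 of 10 spermatid, 7 of 15 lymphocyte and 4 of 10 spermatocyte genes were also above (median ratios 1.72, 1.35 and 1.38). With mitochondrial genes, 1, 0 and 1 of them were (median ratios 1.26, 1.07 and 1.03). Of 10 spermatogonial genes, 1 was above with mitochondrial genes and 2 without. The part of chromatin quality and of age in these ratios was not tested. Of the stromal genes, Col3a1 was at 7.27 against 1.92 per 1000000 (20.5 against 3.92 over nuclear genes), and Dcn, a small matrix proteoglycan, at 6.56 against 1.85 (18.4 against 3.77). Of the peritubular genes, Cald1, which encodes the actin-binding caldesmon, was at 16.7 against 5.95 (47.1 against 12.1 over nuclear genes). Acta2 went the other way, at 14.8 against 44.2 (41.6 against 90.2 over nuclear genes), although its RNA was higher in the pool. Cspg4, the pericyte proteoglycan NG2, was at 18.7 against 4.88 per 1000000 (52.5 against 9.96 over nuclear genes), with RNA of 0.171 UMIs per 10000. Against the germ cells, 2 of 13 stromal genes were at least 1.5-fold above every population, and 6 over nuclear genes. Of 13 peritubular genes, 1 and 2 were, next to 0.597% and 2.82% of all genes. With mitochondrial genes, the stromal list summed to 154 in the pool and 166 in Nfya-CKO spermatogonia. The peritubular list summed to 182 in the pool and 248 in Nfya-CKO spermatogonia.

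At Sertoli genes the pool was lower, with a median ratio of 0.39 with mitochondrial genes and 0.497 without. Of 27 genes, 25 and 17 were below Sertoli cells, next to 21.3% and 6.30% of all genes. Sox9 was at 23.9 against 62.9 per 1000000 and 67.3 against 128 over nuclear genes. Clu was at 19.0 against 58.0 and 53.4 against 118, the opposite direction from its RNA. Of 16 Leydig genes, 4 were above Sertoli cells and 3 below, next to 5.88% and 21.3% of all genes, so the count below was close to that share. Over nuclear genes 6 were above and 2 below, next to 18.6% and 6.30% of all genes. Insl3 was at 9.48 against 3.03 (26.7 against 6.19 over nuclear genes) and Cyp17a1 at 5.51 against 3.16 (15.5 against 6.43). Star was lower, at 15.7 against 33.1 (44.2 against 67.5 over nuclear genes), as was Hsd17b3, the enzyme that completes testosterone, at 4.75 against 17.4 (13.4 against 35.5). Against the germ cells, 0 of 16 Leydig genes were at least 1.5-fold above every population with mitochondrial genes, close to the 0.597% of all genes. Over nuclear genes 4 were, next to 2.82% of all genes. There Insl3 was at 26.7 against 13.8 and Cyp17a1 at 15.5 against 7.45 in the highest germ cell population. Of the 1942 cells named pool by RNA, for which the pool column stands when read by its name, 53.5% are named Sertoli by chromatin. Which cells went into that column was not tested.

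Over all genes, 183 of 30665 were above every germ cell population by at least 1.5-fold (0.597%), and 863 over nuclear genes (2.82%). The 6 with the largest ratios were Akr1cl (13.7 against 2.68 in the highest germ cell population), an aldo-keto reductase gene, Xdh (12 against 2.78), xanthine dehydrogenase, Ifitm2 (22.0 against 5.92), Gpr20 (22.0 against 6.25), Ggt5 (19.2 against 5.72) and Asb2 (11.1 against 3.06). Over nuclear genes these pairs were 38.5 and 5.22, 33.6 and 4.65, 61.8 and 11, 61.8 and 10.9, 54.1 and 10.2, and 31.3 and 5.95. Akr1cl was high by RNA too, at 5.73 UMIs per 10000 against 0.943 in Nfya-CKO spermatogonia, and its chromatin value in Sertoli cells was 18.9 (38.6 over nuclear genes, next to 38.5 in the pool). The other 5 were higher in the pool than in Sertoli cells on both scales, with 7.10, 6.44, 5.64, 5.53 and 1.95 in Sertoli cells (14.5, 13.1, 11.5, 11.3 and 3.98 over nuclear genes). Endothelial and macrophage genes were close to Sertoli cells, with median ratios of 0.849 and 0.951 (1.07 and 1.17 over nuclear genes).

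**Figure D5:**
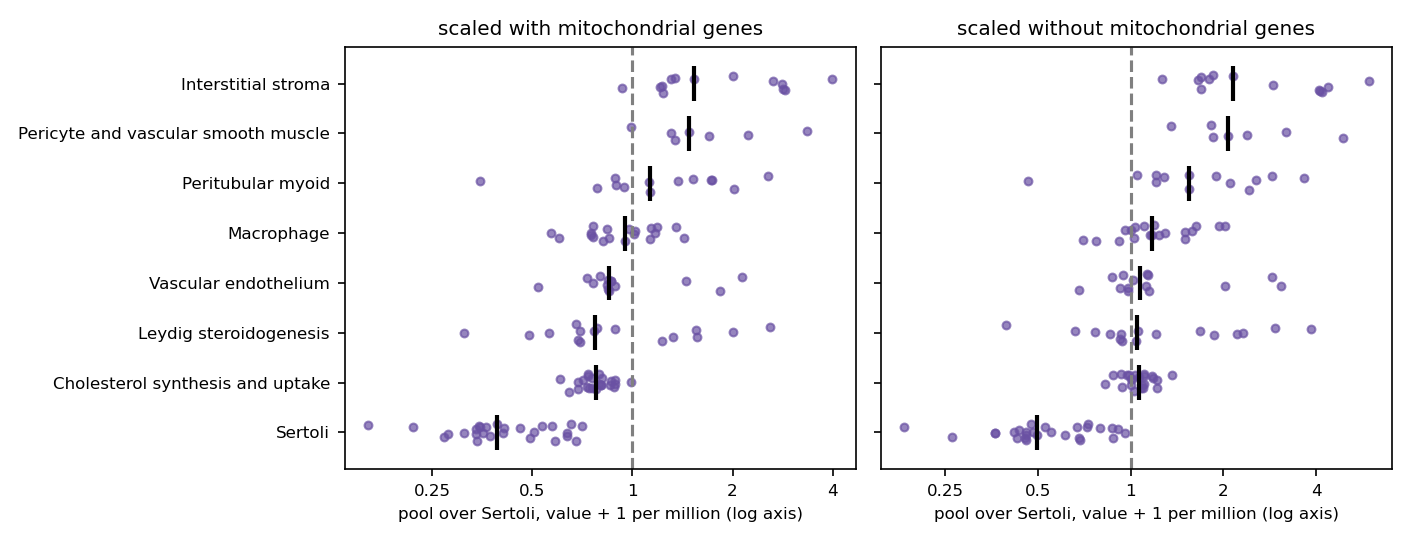
Ratio of the pool to Sertoli cells in scATAC-seq for the genes of each list (one point per gene, black bar at the median, value plus 1 per 1000000, log axis), scaled with mitochondrial genes and with nuclear genes alone. The medians of stromal genes (1.53 and 2.15) and of pericyte genes (1.48 and 2.07) lie right of 1 in both, all Sertoli genes lie left of it (medians 0.39 and 0.497), and the medians of the Leydig, cholesterol, endothelial and macrophage genes cross 1 with the scaling.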

How the data were processed

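Testis nuclei of 5 conditions were assayed for RNA and accessible chromatin on the BD Rhapsody system, with 1 library per condition and assay. Per the labels and the study's methods, the authors aligned RNA reads to mm10 with STAR 2.7.10b, kept unique alignments, collapsed UMIs, filtered cells at 500 genes and 5% mitochondrial reads, called doublets and normalized in Seurat 5.2.1. scATAC-seq reads were aligned with BWA 0.7.12, shifted for Tn5 cuts with bedtools 2.27.1, and kept in ArchR 1.0.3 from 1000 fragments and a TSS enrichment of 4, with doublets removed.

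The deposited cell tables give counts of UMIs, genes and fragments, percent of mitochondrial UMIs, ratio and score columns such as TSS enrichment and nucleosome ratio, and fraction columns. The deposited matrices give natural log values of population means, which were back-transformed (exponential minus 1). The mitochondrial level of every RNA column equalled the mean over its cells, so columns weigh cells equally. RNA was given per 10000 and scATAC-seq per 1000000, and 13 per-cell columns were not used. Ratios used pseudocounts of 0.1 (RNA) and 1 (scATAC-seq), folds of 2 and 1.5, and an RNA mean of at least 0.05. Depth limits the shares through the exact (Clopper-Pearson) 95% intervals, and the depth behind population means is not in the matrices.

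The 17 gene lists, their genes and the cells were chosen with earlier results of these data known. Named genes are the 4 given markers (Insl3, Cyp17a1, Ptgds and Clu), up to 6 genes per list highest in the pool, listed genes of cell types called absent, and the largest ratios: 12 to germ cells, 10 each way to Sertoli cells, 8 each way to Nfya-CKO spermatogonia, the 10 highest nuclear genes and 6 in scATAC-seq. Gene models without a symbol were passed over. Other listed genes given with values were chosen after their values were seen. Alternatives changed pseudocounts, filters, scaling, reference populations and cell filters. Python 3.11.15, numpy 2.4.6, pandas 2.3.3, scipy 1.17.1 and matplotlib 3.10.9 were used. The counting of genes by fold was tested on simulated RNA columns with known changes, and the other steps were not.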

Additional observations from a re-analysis of the deposited data

How the results depend on the processing

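Of 48 alternatives over 12 results, 41 were planned and 7 were added after seeing the data, and 18 stayed within the interval or within 1.5 times the value given. The share of the Nfya-CKO library in the pool was 81.0% with at least 1000 genes per cell, 75.0% without shared barcodes and 79.4% without cells whose barcode is deeper in another library. The Nfya-CKO share of the pool was then 69%, 56.8% and 69.9%. The Sertoli share of paired Nfya-CKO pool cells was 35.5% at a TSS enrichment of at least 8 and 60.2% without shared barcodes. With the RNA settings used above, 34 of the 84 listed somatic genes past the filter (40.5%) stood above every germ cell population. Of all genes compared, 2.39% did. The 34 include the given markers Insl3, Cyp17a1, Ptgds and Clu. With an RNA pseudocount of 1, genes above every germ cell population numbered 84 (0.554%). Listed somatic genes among them numbered 19 (22.6% of those past the filter). At that pseudocount, genes above and below Sertoli cells numbered 210 and 199, and above and below Nfya-CKO spermatogonia 277 and 154. With 0.01, genes above Sertoli cells numbered 3683 and below Nfya-CKO spermatogonia 3105. With a mean of at least 0.2, 187 genes were above every germ cell population and 1344 above Sertoli cells. Against the mean of the 9 control germ cell columns, 1554 genes (10.2%) and 65 listed somatic genes (77.4% of those past the filter) were above. In scATAC-seq, genes above every germ cell population numbered 863 without mitochondrial genes, 97 with a pseudocount of 5, 10 with a mean of at least 10 per 1000000 and 1282 against the control mean. Genes above Sertoli cells numbered 5644, 475 and 213 under the first 3 of these settings, and genes below 1914, 3283 and 4271. The cause was not tested beyond what each setting does by construction.

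No paired analysis was possible because each condition has 1 library. With 1 library per condition, no spread between animals is known. The gene columns pool libraries, ages and genotypes, so levels by library, and levels without the shared barcodes or shallow clusters, were not analysed here.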
